A study of Mus musculus with 15 samples.

Results

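The comparison concerns what the lack of methionine, choline and folate added to a high-fat diet in mouse liver at equal fat content. It sets the 5 libraries labelled MCD against the 5 labelled HFD, chosen by their diet label, which makes 10 of the 15 libraries of the series. The mice were male and of the inbred strain C57Bl/6J, and polyA RNA came from the left lobe of the liver, which had been pulverized. Both HFD and MCD held 31% fat, methionine, choline and folate being absent from MCD alone, and the remaining 5 libraries came from a base diet with 4% fat (BD). All groups had received the vehicle alone, 5% of an emulsifier (Alkmauls El-620) in saline, 24 h earlier. The animals' age, the time on diet and whether each library came from its own mouse are not given in the labels, so the p-values below weigh differences against the spread between libraries, which may be technical. Both groups carry the high fat load and the vehicle, and values from BD libraries are given beside some genes as a reference.

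Methionine is the source of S-adenosylmethionine, the methyl donor of the cell, and folate and choline supply the methyl groups that remake methionine from homocysteine. Choline and S-adenosylmethionine are both routes to phosphatidylcholine, which the hepatocyte needs to coat very low density lipoprotein (VLDL) and so to export triglyceride. Diets of this kind are widely used to produce fatty liver with inflammation and fibrosis in rodents. In that setting injured hepatocytes, macrophages and hepatic stellate cells, the main collagen producers of the liver, change together. Whole tissue was sequenced, so more cells of a type and more RNA per cell cannot be told apart in what follows.

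One HFD library stood apart before any gene was tested. The first principal component of the 10 libraries (39.5% of the variance) placed MCD at one end and HFD at the other. HFD replicate 2 lay at -15.8 on it, among the MCD libraries (-29.4 to -4.80), while the other 4 HFD libraries lay at 16.1 to 36.6. Its ratio of non-unique alignments to gene counts, 1.15, was also nearer to MCD (1.19 to 1.66) than to the other HFD libraries (1.73 to 2.53). Gene counts per library ran from 9146731 to 23131089 in MCD and from 4367774 to 20892987 in HFD, and HFD replicate 2 held 10312311. The hepatocyte list (33 genes for secreted proteins and identity factors) summed to 155210 to 206736 CPM (counts scaled to library size with TMM factors) in MCD and to 156892 to 189261 CPM in HFD without that library, in which it was 159599 CPM. Results are therefore given with all libraries and without HFD replicate 2, and a single log2 fold change (± SE) is from the fit with all libraries unless stated.

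With all libraries 271 of 12193 genes tested were higher in MCD (2.22%) and 113 were lower (0.927%), 3.15% in all, at an adjusted p under 0.05 in edgeR's quasi-likelihood test (Benjamini-Hochberg adjustment over all genes tested), which is what called means below unless another tool or setting is named. Without HFD replicate 2 the same test called 839 of 12340 genes higher (6.8%) and 409 lower (3.31%), 10.1% in all. That library was left out because its expression lay among the MCD libraries, which by itself favours more calls and smaller p-values. Calls and p-values of the fit without it, here and below, do not allow for that choice and are no added evidence. Counts of list members called below are to be read against the shares of all genes in the same fit and direction. All 271 genes called higher and 112 of the 113 called lower with all libraries were also called without it. The median log2 fold change over all genes was -0.003 with all libraries and 0.013 without that library, and the genes called with all libraries had a median absolute log2 fold change of 0.97 when higher and 0.61 when lower. In 527 genes (4.32%) no MCD library overlapped any HFD library, 304 with MCD above (2.49%) and 223 with MCD below (1.83%). Once HFD replicate 2 was left out, 12.6% of genes had no overlap. The counts leaned on single libraries: on leaving out HFD replicates 1, 3, 4 and 5 in turn, 123, 121, 56 and 108 genes were higher and 58, 35, 18 and 47 lower. On leaving out MCD replicates 1, 4 and 5 in turn, 89, 107 and 163 were higher and 24, 35 and 57 lower. Without scaling factors the split of calls with all libraries moved from 271 higher and 113 lower to 411 and 67, and without HFD replicate 2 from 839 and 409 to 1072 and 228, while the median of all genes moved by less than 0.1 on the log2 scale.

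Genes that handle the missing nutrients gave 2 calls of 21 for the methionine cycle, 1 of 17 for transsulfuration, 2 of 28 for folate and 1 of 30 for choline with all libraries, against 3.15% of all genes. On leaving out HFD replicate 2 the calls were 2, 3, 4 and 3, against 10.1% of all genes. Of the methionine cycle 1 gene was called higher and 1 lower in both fits. The gene called higher was Mat2a (GRCm38 chr6:72432796-72439556), the methionine adenosyltransferase of non-hepatic and dividing cells that makes S-adenosylmethionine. Mat2a stood at 134, 144, 116, 146 and 157 CPM in MCD replicates 1 to 5 and at 65.8, 80.6, 84.4, 99.3 and 92.2 CPM in HFD replicates 1 to 5. All MCD libraries lay above all HFD libraries, and HFD replicate 2 lay inside the range of the other HFD libraries. The log2 fold change was 0.72 ± 0.12 (SE; edgeR adjusted p = 0.00575) and 0.72 ± 0.13 without HFD replicate 2 (edgeR adjusted p = 0.00218), and the BD mean was 80.5 ± 12.3 CPM (SD, n = 5). Mat1a, the adult hepatocyte form of the enzyme, was lower in every MCD library than in any HFD library but was not called by edgeR (-0.29 ± 0.09, edgeR adjusted p = 0.0733). DESeq2 called it in both fits (adjusted p = 0.0102 and 0.0178). Ahcyl2, a relative of the S-adenosylhomocysteine hydrolase, was the gene called lower (-0.88 ± 0.23, edgeR adjusted p = 0.047; -1.0 ± 0.21 and 0.00651 without HFD replicate 2). With all libraries its call was lost on leaving out any 1 of MCD replicates 1, 2, 3, 4 and 5, HFD replicates 1, 3, 4 and 5 or BD replicates 1 and 2 (edgeR adjusted p = 0.057 to 0.15). Mat2a was called in each of the 26 alternatives run.

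The steps that remake methionine or dispose of its methyl groups did not pass edgeR's test in either fit. Gnmt, which consumes S-adenosylmethionine by methylating glycine, was at 381, 526, 791, 524 and 711 CPM in MCD and 964, 742, 888, 873 and 846 CPM in HFD. The groups overlapped, and the fold change had a 95% interval of -0.97 to -0.14 before adjustment over genes (edgeR adjusted p = 0.126; 0.0967 without HFD replicate 2). In the fit without that library Gnmt was called lower by DESeq2 (adjusted p = 0.0375), with non-unique alignments as a covariate (edgeR adjusted p = 0.0383) and on also leaving out MCD replicate 3 (edgeR adjusted p = 0.034). Bhmt, which uses choline-derived betaine to remake methionine, differed by -0.20 ± 0.14 on the log2 scale. Mtr, which uses folate for it, differed by -0.24 ± 0.17, and Ahcy by -0.11 ± 0.14. In the transsulfuration and taurine list, the path from homocysteine to cysteine and glutathione, 1 of 17 genes was higher with all libraries and 3 without HFD replicate 2. These were Gss, the last step of glutathione synthesis (110.0, 95.6, 96, 111 and 101 CPM in MCD, 64.2, 96, 64.5, 60.2 and 62.4 CPM in HFD), Gclc, the catalytic subunit of its first step, and Fmo1. Gss rose by 0.56 ± 0.14 with all libraries (edgeR adjusted p = 0.0329) and by 0.73 ± 0.12 without HFD replicate 2 (edgeR adjusted p = 0.00113). With all libraries its call was lost on leaving out any 1 of MCD replicates 1, 4 and 5 or HFD replicates 1, 3, 4 and 5 (edgeR adjusted p = 0.0573 to 0.107). For Fmo1 the adjusted p without HFD replicate 2 was 0.0743 and 0.0951 on also leaving out MCD replicates 1 and 4 in turn, and 0.087, 0.0653, 0.106 and 0.0641 on also leaving out HFD replicates 1, 3, 4 and 5 in turn. Cbs and Cth, which carry homocysteine to cysteine, were not called by edgeR (-0.28 ± 0.12 and -0.00 ± 0.14). In the fit without HFD replicate 2, Cbs was called lower by DESeq2 (adjusted p = 0.0235), with DESeq2's size factors in edgeR (0.0458), with the covariate (0.0296) and on also leaving out MCD replicate 3 (0.014).

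**Figure D1:**
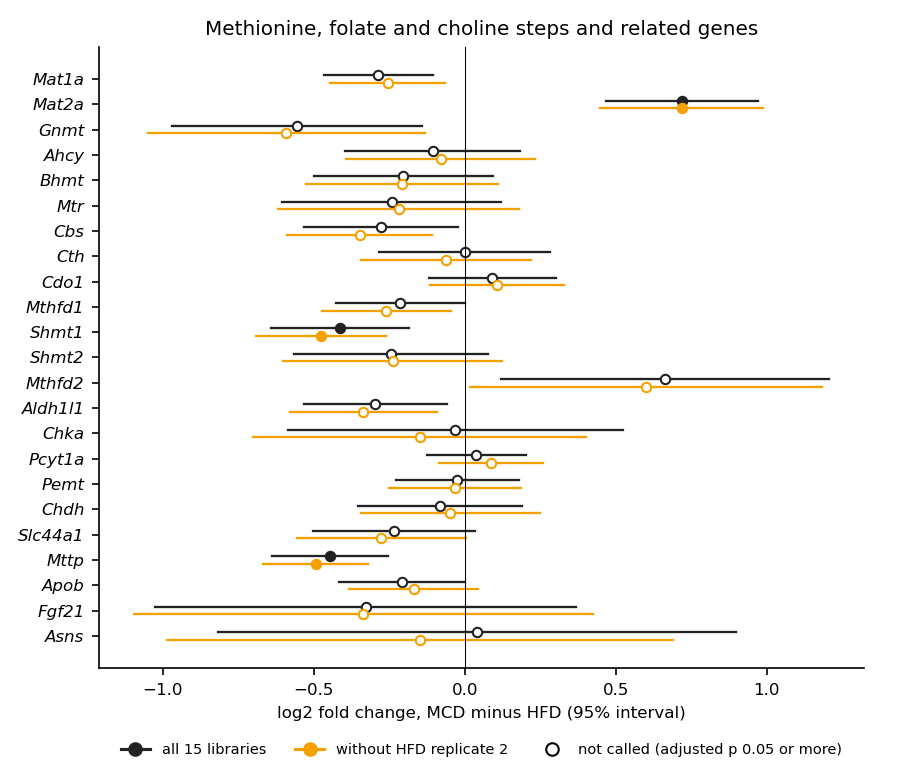
Log2 fold change of MCD against HFD (x axis, with 95% interval) for 23 genes of methionine, folate and choline use and of VLDL export and amino acid shortage (y axis), with all 15 libraries in the fit and without HFD replicate 2. Filled points passed an adjusted p under 0.05: Mat2a lay at 0.72 in both fits, Shmt1 at -0.41 and -0.47, and Mttp at -0.45 and -0.49.

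In the folate list 0 of 28 tested genes were called higher and 2 lower with all libraries, and 1 and 3 without HFD replicate 2. Of its fold changes 9 of 28 were positive, and the median was -0.16, against -0.003 over all genes. Called lower in both fits were Shmt1, the cytosolic serine hydroxymethyltransferase that loads one-carbon units onto folate, and Dmgdh, which passes methyl groups of choline breakdown to folate. Shmt1 was at 187, 218, 209.8, 174 and 159 CPM in MCD and 279, 198, 247, 259 and 278 CPM in HFD. Its value in HFD replicate 2 lay within the MCD range, while the other HFD libraries lay above it. The fold change was -0.41 ± 0.11 (edgeR adjusted p = 0.045; -0.47 ± 0.10 and 0.00753 without that library). Dmgdh showed the same pattern (log2 fold change -0.35 ± 0.09, edgeR adjusted p = 0.0466; -0.40 ± 0.09 and 0.00786 without HFD replicate 2). With all libraries both calls lay close to the threshold. That of Shmt1 was lost on leaving out any 1 of MCD replicates 1, 4 and 5, HFD replicates 1, 3, 4 and 5 or BD replicates 1, 2, 3 and 4 (edgeR adjusted p = 0.0529 to 0.121). That of Dmgdh was lost on leaving out the same libraries (edgeR adjusted p = 0.0522 to 0.156), so that the list then had 0 calls. In the fit without HFD replicate 2 both were called under each further MCD or HFD library left out, and the count of 3 lower was 6 on also leaving out MCD replicate 3. Without HFD replicate 2, Fpgs, which traps folate in cells by adding glutamates, was also lower (-0.54 ± 0.14, edgeR adjusted p = 0.0248). Its adjusted p was 0.0557 and 0.0515 on also leaving out MCD replicates 1 and 4 in turn, and 0.0562 and 0.0668 on also leaving out HFD replicates 1 and 4 in turn. Mthfd1l, a mitochondrial folate enzyme, was higher then, at 3.3, 2.28, 1.06, 2.42 and 1.12 CPM in MCD against 0.169, 0.474, 0.338 and 0.944 CPM in the other HFD libraries and 2.83 CPM in HFD replicate 2. Mthfd1, Shmt2, Mthfd2 and Aldh1l1 were not called by edgeR in either fit. DESeq2 called Aldh1l1 lower without HFD replicate 2 (adjusted p = 0.0345). In that fit, with non-unique alignments as a covariate, edgeR called Mthfd1 (0.0347), Shmt2 (0.0194) and Aldh1l1 (0.0495) lower. Mthfd1 was called there on also leaving out MCD replicate 3 (0.0462).

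Choline and phosphatidylcholine genes gave 1 called lower of 30 with all libraries, Etnk1, an ethanolamine kinase (-0.28 ± 0.08, edgeR adjusted p = 0.0485; -0.29 ± 0.08 and 0.0292 without HFD replicate 2). With all libraries that call was lost on leaving out any 1 of MCD replicates 1, 2, 4 and 5, HFD replicates 1, 3, 4 and 5 or BD replicates 1, 2, 3 and 4 (edgeR adjusted p = 0.0552 to 0.149). In the fit without HFD replicate 2 its adjusted p was 0.0591 on also leaving out MCD replicate 1, and 0.0649 and 0.102 on also leaving out HFD replicates 3 and 4 in turn. Pemt, which makes phosphatidylcholine with methyl groups from S-adenosylmethionine, was at 258, 294, 263, 248 and 249 CPM in MCD and 267, 251, 245, 277 and 293 CPM in HFD. The groups overlapped throughout, and the 95% interval of its fold change was -0.23 to 0.18. Pcyt1a, the controlling enzyme of the choline route, differed by 0.04 ± 0.08 with an interval of -0.13 to 0.20, Chka by -0.03 ± 0.26 and Chdh, which starts choline breakdown, by -0.08 ± 0.13. Without HFD replicate 2 the choline transporter-like gene Slc44a2 (0.69 ± 0.15, edgeR adjusted p = 0.00701) and Lpcat2, which remodels phosphatidylcholine, were higher, while Slc44a1 was not called. Lpcat2 lost the call on also leaving out any 1 of the other MCD and HFD libraries except MCD replicate 3. For VLDL export, 1 of 20 genes was lower with all libraries, against 0.927% of all genes. This was Mttp, which loads lipid onto apolipoprotein B, at 410.1, 416, 436, 385 and 365 CPM in MCD and 547, 452, 573, 625 and 545 CPM in HFD. All HFD libraries lay above all MCD libraries, HFD replicate 2 being the lowest of them, with a fold change of -0.45 ± 0.09 (edgeR adjusted p = 0.016) and -0.49 ± 0.08 without it (edgeR adjusted p = 0.00143). With all libraries its call was lost on leaving out HFD replicate 4 (edgeR adjusted p = 0.0586). Apob itself was not called (-0.21 ± 0.10).

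Genes that ATF4 switches on when amino acids are short had a median fold change of 0.18 (26 of 32 positive), with 1 called higher in the fit with all libraries and 5 without HFD replicate 2, none lower. In these fits 2.22% and 6.8% of all genes were called higher. Atf3, a stress transcription factor, was the member called with all libraries. It stood at 6.17, 9.86, 6.15, 10.2 and 15.8 CPM in MCD and 1.69, 6.23, 2.37, 1.55 and 1.89 CPM in HFD, where HFD replicate 2 alone reached the MCD range. Its fold change was 1.8 ± 0.38 (edgeR adjusted p = 0.0207) and 2.43 ± 0.32 without HFD replicate 2 (edgeR adjusted p = 0.000286). With all libraries its call was lost on leaving out any 1 of MCD replicate 4 or HFD replicates 1, 3, 4 and 5 (edgeR adjusted p = 0.0523 to 0.0771). Trib3, Nupr1, Gdf15 and Pck2 were called as well without HFD replicate 2 (0.90, 1.42, 1.64 and 0.66). The count of 5 became 1 and 3 on also leaving out HFD replicates 4 and 5 in turn. Asns, asparagine synthetase and a usual marker of amino acid shortage, was at 6.1, 6.96, 6.88, 3.91 and 2.54 CPM in MCD and 6.83, 2.27, 6.16, 2.85 and 8.77 CPM in HFD, with overlap throughout (0.04 ± 0.40, 95% interval -0.82 to 0.90). Fgf21, a liver hormone of nutrient stress, was at 13 ± 2.33 CPM in MCD and 17.1 ± 7.62 CPM in HFD without replicate 2 (SD, n = 5 and 4) and was not called, while the BD mean was 1.84 ± 1.83 CPM (SD, n = 5).

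Most genes of mitosis were higher in MCD, and HFD replicate 2 sat with its own diet for them. With all libraries 20 of 29 tested members were higher in MCD and none lower (median log2 fold change 1.30, against -0.003 over all genes, of which 2.22% were called higher). Without that library 23 of 30 were higher and none lower (median 1.37, with 6.8% of all genes called higher). In 22 of the 29 no MCD library overlapped any HFD library, including HFD replicate 2, against 4.32% of all genes. The list summed to 107 to 139 CPM in MCD, to 59.4 to 78.5 CPM in the other HFD libraries and to 53.1 CPM in HFD replicate 2. With all libraries the count was 10 and 11 on leaving out MCD replicates 1 and 4 in turn, and 11, 13, 9 and 12 on leaving out HFD replicates 1, 3, 4 and 5 in turn. In the fit without HFD replicate 2 it was 15 on also leaving out MCD replicate 1, and 15 and 14 on also leaving out HFD replicates 1 and 4 in turn, and with counts thinned to 3704642 per library, where 13 members could be tested, 6.

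Mki67, the proliferation marker Ki-67 (GRCm38 chr7:135689784-135716450), stood at 11.5, 9.34, 10.5, 9.38 and 7.31 CPM in MCD and 2.95, 3.21, 5.45, 3.53 and 2.43 CPM in HFD. Every MCD library was above every HFD library, and HFD replicate 2 lay inside the range of the other HFD libraries (1.51 ± 0.29, edgeR adjusted p = 0.0119; 1.5 ± 0.31 and 0.00642 without HFD replicate 2). Cdc20, which activates the anaphase-promoting complex, was at 4.8, 5.61, 2.8, 1.78 and 3.35 CPM in MCD and 1.1, 0.566, 0.474, 0.773 and 0.405 CPM in HFD (2.33 ± 0.35, edgeR adjusted p = 0.00314; 2.27 ± 0.38 and 0.0013 without HFD replicate 2). Cdk1, the kinase that drives entry into mitosis, was at 4.68, 6.64, 4.31, 4.26 and 5.28 CPM in MCD and 2.11, 1.89, 1.42, 2.08 and 1.35 CPM in HFD (1.43 ± 0.24, edgeR adjusted p = 0.00575; 1.45 ± 0.26 and 0.00223 without HFD replicate 2). HFD replicate 2 lay within the range of the other HFD libraries for Cdk1 and Cdc20. Prc1 and Nusap1, which bundle spindle microtubules, and Top2a, which untangles DNA, rose by 1.56, 1.83 and 1.44 on the log2 scale (edgeR adjusted p = 0.00437, 0.0129 and 0.0118). Aurkb and Plk1, mitotic kinases, and Foxm1, a transcription factor of this stage, rose by 2.11 ± 0.38, 1.56 ± 0.39 and 1.5 ± 0.34. These are low levels, and in HFD replicate 3, the shallowest HFD library, 3 counts correspond to 0.711 CPM.

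In the DNA replication list, of 30 tested, 3 were higher (Mcm6 and Mcm2, parts of the replicative helicase, and Lig1, a DNA ligase) and 1 was lower, E2f8, a repressor of E2F targets, with the same counts in both fits. Over all genes 2.22% were called higher and 0.927% lower with all libraries, and 6.8% and 3.31% without HFD replicate 2. Mcm6 was at 14.4, 12.6, 7.83, 14.3 and 9.55 CPM in MCD and 5.32, 6.42, 5.69, 6.37 and 5.39 CPM in HFD without overlap (1.0 ± 0.20, edgeR adjusted p = 0.0147; 1.05 ± 0.22 and 0.00617 without HFD replicate 2). E2f8 was at 8.38, 17.1, 14.9, 13.6 and 15.4 CPM in MCD and 26.2, 23.9, 26.5, 24.8 and 20.8 CPM in HFD, also without overlap (-0.83 ± 0.20, edgeR adjusted p = 0.030; -0.82 ± 0.21 and 0.0214 without HFD replicate 2). With all libraries its call was lost on leaving out any 1 of MCD replicates 1 and 4 or HFD replicates 1, 3 and 4. Without HFD replicate 2 it was lost on also leaving out HFD replicates 3 and 4 in turn (edgeR adjusted p = 0.0507 and 0.0672). Of the p53 targets, cell cycle brakes and death genes 4 of 29 were higher with all libraries and 9 of 30 without HFD replicate 2. Ccnd1, cyclin D1, which opens the cell cycle, was at 124, 98.5, 105, 134 and 138 CPM in MCD, 78.9, 72.9, 83.9, 62.5 and 83.5 CPM in HFD and 19.8 ± 2.47 CPM in BD (SD, n = 5). All MCD libraries exceeded all HFD libraries (0.66 ± 0.11, edgeR adjusted p = 0.00666; 0.66 ± 0.12 and 0.00308 without HFD replicate 2). Cdkn2c, an inhibitor of the cyclin D kinases, rose by 0.91 ± 0.16 (edgeR adjusted p = 0.00666), and Eda2r, a p53 target of the tumour necrosis factor receptor family, was at 3.58, 2.18, 2.8, 4.66 and 3.76 CPM in MCD, 0.675, 1.18, 0.338 and 0.539 CPM in the other HFD libraries and 3.02 CPM in HFD replicate 2. That count of 9 was 5 and 5 on also leaving out MCD replicates 1 and 4 in turn, and 5 and 5 on also leaving out HFD replicates 4 and 5 in turn.

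Promoters of the mitosis genes are shown because these genes moved together. The motif searched was TTTGAA, the core of the cell cycle homology region at which the DREAM and MuvB complexes repress and later activate such genes, on both strands, in RefSeq windows from 250 bases before to 50 after the start (GRCm38.p6). Of the 23 members called without HFD replicate 2, 18 matched the promoter table, and 16 of these 18 held the motif, against 20.23% of 27025 genes and 17.89% of 32851 windows. Of 7 matched members that were not called, 4 held it. In 15 of the 18 it lay within 50 bases of the start, against 4.944% of all windows, a distance chosen after the matches were seen. The windows below run 5′ to 3′ on the gene's strand, and capitals mark TTTGAA. Prc1 (chr7:80294201-80294500, plus strand) has it 5 bases before the start, Cdc20 (chr4:118437294-118437593, minus strand) 18 bases before, and Cdk1 (chr10:69352863-69353162, minus strand) holds 2 copies. Nusap1 (chr2:119618048-119618347, plus strand) was called too and has none in this window.
Prc1: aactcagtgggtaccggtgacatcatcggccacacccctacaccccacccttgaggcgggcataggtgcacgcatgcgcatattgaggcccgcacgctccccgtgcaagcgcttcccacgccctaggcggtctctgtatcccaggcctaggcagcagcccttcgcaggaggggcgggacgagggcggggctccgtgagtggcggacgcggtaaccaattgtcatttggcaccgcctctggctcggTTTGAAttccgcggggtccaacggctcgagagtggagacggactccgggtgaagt
Cdc20: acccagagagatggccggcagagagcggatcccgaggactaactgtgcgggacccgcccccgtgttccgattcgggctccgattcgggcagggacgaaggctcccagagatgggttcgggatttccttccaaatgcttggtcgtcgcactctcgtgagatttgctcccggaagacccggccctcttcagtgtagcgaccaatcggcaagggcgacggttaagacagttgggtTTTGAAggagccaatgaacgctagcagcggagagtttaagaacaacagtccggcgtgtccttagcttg
Cdk1: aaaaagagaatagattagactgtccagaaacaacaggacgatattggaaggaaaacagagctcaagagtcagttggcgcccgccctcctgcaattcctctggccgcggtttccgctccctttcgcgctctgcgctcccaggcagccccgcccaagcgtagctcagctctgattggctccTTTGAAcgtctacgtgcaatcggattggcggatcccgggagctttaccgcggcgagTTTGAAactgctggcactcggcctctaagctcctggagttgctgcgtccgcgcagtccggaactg
Nusap1: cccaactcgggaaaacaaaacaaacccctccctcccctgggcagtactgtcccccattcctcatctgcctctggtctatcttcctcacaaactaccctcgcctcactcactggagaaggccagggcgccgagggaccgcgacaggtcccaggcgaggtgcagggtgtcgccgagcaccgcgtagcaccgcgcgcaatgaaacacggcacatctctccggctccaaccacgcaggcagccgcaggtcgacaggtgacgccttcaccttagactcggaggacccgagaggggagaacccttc

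The ATF4 members were searched for TGATGNAA, the binding letters of ATF4 with C/EBP partners, in the same windows and on both strands. It was found in 4 of the 5 members called without HFD replicate 2 (Atf3, Trib3, Nupr1 and Pck2, not Gdf15), in 6 of 22 members not called and in 3.969% of all windows. Atf3 (chr1:191183284-191183583, minus strand) and Nupr1 (chr7:126625421-126625720, minus strand) are shown, since both carry it 110 bases before the start, on the opposite strand, so the capitals read as its reverse complement. Other lists were searched with motifs of factors known for them. TTTGAA was in 1 of 3 matched DNA replication members called higher and in 4 of 22 not called. TGACNNNGC, of NRF2, was in 2 of 7 matched NRF2 targets called and in 7 of 14 not called (13.99% of all genes). The interferon-factor motif searched was GAAA repeated after NN. It was in 1 of 2 matched interferon-response members called and in 14 of 20 not called (3.993% of all genes). TGANTCA, of AP-1, was in 3 of 6 matched chemokine members called and 3 of 13 not called, and in 2 of 17 matched matrix members called and 0 of 10 not called (8.973% of all genes). A match describes letters in a window and not binding.
Atf3: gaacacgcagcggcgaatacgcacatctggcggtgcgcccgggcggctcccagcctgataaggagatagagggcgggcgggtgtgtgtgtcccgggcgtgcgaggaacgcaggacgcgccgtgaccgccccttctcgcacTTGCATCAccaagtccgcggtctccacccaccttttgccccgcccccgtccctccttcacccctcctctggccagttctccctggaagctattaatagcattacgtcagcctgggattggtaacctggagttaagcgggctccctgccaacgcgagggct
Nupr1: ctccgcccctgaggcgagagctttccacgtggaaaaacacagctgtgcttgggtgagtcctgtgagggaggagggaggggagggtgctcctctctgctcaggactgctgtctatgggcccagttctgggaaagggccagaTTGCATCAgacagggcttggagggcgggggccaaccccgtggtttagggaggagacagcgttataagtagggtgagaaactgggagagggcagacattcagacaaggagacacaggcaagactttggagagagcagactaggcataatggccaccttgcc

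**Figure D2:**
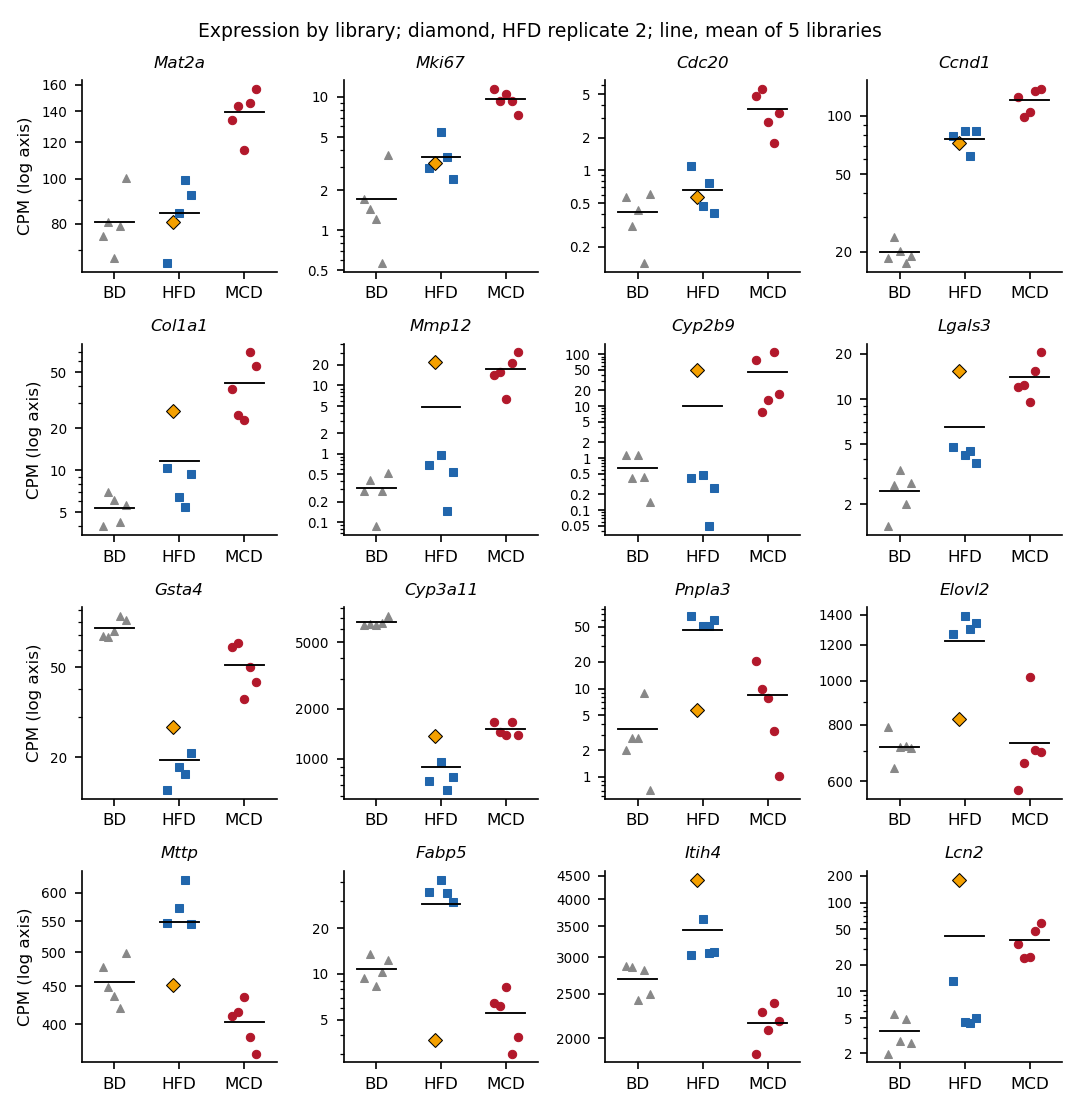
CPM on a log axis for 16 genes in each library, by diet (BD, HFD and MCD, 5 libraries each), with the mean as a line and HFD replicate 2 as a diamond. The diamond sits with the other HFD libraries for Mat2a, Mki67, Cdc20 and Ccnd1 and with or beyond the MCD libraries for Mmp12, Cyp2b9, Lgals3, Pnpla3, Fabp5 and Lcn2.

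Of 21 tested collagen genes 10 were higher in MCD and 2 lower with all libraries, and 11 and 2 without HFD replicate 2 (medians 0.66 and 0.77). Over all genes 2.22% were called higher and 0.927% lower with all libraries, and 6.8% and 3.31% without that library. The summed level of the list overlapped between the diets, at 1128 to 2281 CPM in MCD, 1580.3 to 2205 CPM in the other HFD libraries and 1922 CPM in HFD replicate 2. Col1a1 (GRCm38 chr11:94936224-94953042), a chain of the main fibrillar collagen, stood at 38.1, 24.7, 22.8, 69.3 and 55.1 CPM in MCD and 10.5, 26.5, 6.4, 5.5 and 9.44 CPM in HFD. HFD replicate 2 lay within the MCD range and the other 4 below it, with a fold change of 1.83 ± 0.42 (edgeR adjusted p = 0.0338) and 2.42 ± 0.34 without it (edgeR adjusted p = 0.000722). Col3a1 rose by 1.52 ± 0.30, Col1a2 by 1.57 ± 0.31 and Col6a3 by 1.12 ± 0.25 with all libraries. Col15a1 and Col27a1 were the members called lower (-0.91 ± 0.23 and -0.81 ± 0.20). The collagen count with all libraries was 3, 4 and 5 on leaving out MCD replicates 1, 4 and 5 in turn, and 5, 4, 1 and 4 on leaving out HFD replicates 1, 3, 4 and 5 in turn, and it was 0 with non-unique alignments as a covariate in that fit and 7 in the fit without HFD replicate 2.

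Of 42 genes that build, cross-link or cut the matrix, 19 were higher with all libraries and 25 without HFD replicate 2, none lower in either. The shares of all genes called higher in these fits were 2.22% and 6.8%. Mmp12, macrophage elastase, was at 14.1, 15.9, 6.38, 21.2 and 30.6 CPM in MCD and 0.675, 0.948, 0.145 and 0.539 CPM in the other HFD libraries. HFD replicate 2 held 21.7 CPM, and Mmp12 was not called with all libraries (edgeR adjusted p = 0.295) and was called without that library (edgeR adjusted p = 9.82e-05). Mmp13, a collagenase, was at 4.99, 3.63, 2.07, 5.18 and 6.6 CPM in MCD and 0.0844, 2.93, 0.474, 0.676 and 0.405 CPM in HFD. Sparc, a collagen-binding protein, was at 176, 178, 95.6, 184 and 144 CPM in MCD and 62.1, 94.3, 70.1, 62.4 and 68.6 CPM in HFD, with no overlap and HFD replicate 2 just under the lowest MCD library (1.12 ± 0.17, edgeR adjusted p = 0.00395; 1.26 ± 0.16 and 0.000263 without HFD replicate 2). Eln, elastin, rose by 1.3 ± 0.26. With all libraries the matrix count was 6 and 7 on leaving out MCD replicates 1 and 4 in turn, and 7, 8, 4 and 8 on leaving out HFD replicates 1, 3, 4 and 5 in turn, and without HFD replicate 2 it moved by less than 1.5 times under each further MCD or HFD library left out (18 to 26).

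Markers of stellate cells and myofibroblasts gave 5 higher of 28 with all libraries and 12 without HFD replicate 2, none lower, and 27 of 28 fold changes were positive. In these fits 2.22% and 6.8% of all genes were called higher. Vim, an intermediate filament protein of these and other non-epithelial cells, was at 37.8, 35.8, 27.7, 44.9 and 39 CPM in MCD and 18, 29.7, 16.1, 11.4 and 14.4 CPM in HFD, with HFD replicate 2 inside the MCD range (1.05 ± 0.20, edgeR adjusted p = 0.0122; 1.33 ± 0.15 and 0.000105 without HFD replicate 2). Pdgfrb, the growth factor receptor of stellate cells, rose by 0.85 ± 0.15 (edgeR adjusted p = 0.00739; 0.99 ± 0.15 and 0.000575 without HFD replicate 2). Tpm1 rose by 0.56 ± 0.12 and Tgfbi by 0.56 ± 0.10. Acta2, smooth muscle actin and the usual mark of myofibroblasts, was not called (9.42 ± 4.28 CPM in MCD and 7.12 ± 1.73 CPM in HFD without replicate 2, SD, n = 5 and 4; 0.43 ± 0.30 and edgeR adjusted p = 0.406 in the fit without that library). The list summed to 648 to 841 CPM in MCD, 588 to 614 CPM in the other HFD libraries and 679.7 CPM in HFD replicate 2. The count of 12 became 6 on also leaving out MCD replicate 4, and 7, 5 and 6 on also leaving out HFD replicates 3, 4 and 5 in turn.

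Most genes of lipid-associated macrophages, the cells that gather around fat-laden hepatocytes, were higher in MCD once HFD replicate 2 was left out. With all libraries 7 of 31 tested were higher and 1 lower, and without it 27 were higher and 1 lower, with medians of 0.82 and 1.25. The shares of all genes called higher were 2.22% and 6.8%. The list summed to 2393 to 3007 CPM in MCD, 1879.8 to 2179 CPM in the other HFD libraries and 2968 CPM in HFD replicate 2. Lgals3, galectin 3, was at 12, 12.5, 9.51, 15.4 and 20.5 CPM in MCD and 4.81, 4.27, 4.49 and 3.78 CPM in the other HFD libraries, with no overlap between these. It was 15.4 CPM in HFD replicate 2, and the fold change was 1.06 ± 0.34 with that library (edgeR adjusted p = 0.0975) and 1.68 ± 0.22 without it (edgeR adjusted p = 0.00027). Trem2, a lipid receptor that defines these cells, averaged 3.39 ± 1.25 CPM in MCD and 0.669 ± 0.278 CPM in HFD without replicate 2 (SD, n = 5 and 4), and 2.93 CPM in that replicate. Gpnmb, another of their markers, averaged 15.7 ± 8.82 and 0.388 ± 0.295 CPM in the same groups, and 9.06 CPM in HFD replicate 2. Anxa5, annexin A5, rose by 0.82 ± 0.21 with all libraries (edgeR adjusted p = 0.0472; 1.13 ± 0.14 and 0.000177 without HFD replicate 2). With all libraries its call was lost in 18 of 26 alternatives, among them leaving out any 1 of BD replicates 1, 2, 3, 4 and 5.

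Fabp5, a fatty acid binding protein, was the exception of that list. It stood at 6.49, 6.13, 8.22, 2.99 and 3.86 CPM in MCD and 34.8, 3.68, 41.7, 33.9 and 29.8 CPM in HFD, where the other 4 HFD libraries lay between 29.8 and 41.7 CPM and HFD replicate 2 within the MCD range. The fold change was -2.35 ± 0.46 (edgeR adjusted p = 0.0181) and -2.62 ± 0.23 without HFD replicate 2 (edgeR adjusted p = 2.41e-05), and BD libraries averaged 10.8 ± 2.15 CPM (SD, n = 5). The macrophage count with all libraries was 2, 4, 11, 3 and 4 on leaving out MCD replicates 1, 2, 3, 4 and 5 in turn, 3, 2, 0 and 2 on leaving out HFD replicates 1, 3, 4 and 5 in turn, and 4 on leaving out BD replicate 2. Of 16 markers of resident Kupffer cells none was called with all libraries and 1 without HFD replicate 2, the complement gene C1qb (0.42 ± 0.11, edgeR adjusted p = 0.0236). That is near the 6.8% of all genes called higher in that fit. Their sum was 954 to 1160.3 CPM in MCD and 835 to 1093 CPM in HFD without replicate 2, in which it was 1113 CPM, and the ranges overlapped.

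Some genes of chemokines and antigen presentation were also higher. Of 24 chemokine and cytokine genes 3 were higher with all libraries and 9 without HFD replicate 2, none lower. For this and the lists that follow, 2.22% and 6.8% of all genes were called higher in these fits. Cxcl10, which draws in T cells, was at 13.1, 9.55, 8.72, 10.8 and 13.8 CPM in MCD and 3.71, 8.78, 3.55, 2.32 and 2.16 CPM in HFD (1.44 ± 0.35, edgeR adjusted p = 0.0371; 1.97 ± 0.29 and 0.000575 without HFD replicate 2), HFD replicate 2 being the one HFD library inside the MCD range. Ccl2, which draws in monocytes, averaged 4.43 ± 1.19 CPM in MCD and 0.746 ± 0.284 CPM in HFD without replicate 2 (SD, n = 5 and 4). It was called in the fit without that library (2.49 ± 0.55, edgeR adjusted p = 0.0109) and not with it (edgeR adjusted p = 0.0524). Ccl5 and Ccl6 were the other members called with all libraries. Of 8 MHC class II genes 1 was higher with all libraries, H2-DMa, and 6 without HFD replicate 2, among them Cd74, the invariant chain, at 218, 155, 183, 227 and 220.4 CPM in MCD and 97.7, 179, 118, 65.7 and 97.9 CPM in HFD. The chemokine count of 9 was 4 on also leaving out HFD replicate 4. Interferon-response genes gave none of 30 called with all libraries and 3 higher and 1 lower without HFD replicate 2, where the count of 3 was 0, 5, 1 and 1 on also leaving out MCD replicates 1, 3, 4 and 5 in turn, and 1, 0, 1 and 0 on also leaving out HFD replicates 1, 3, 4 and 5 in turn.

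**Figure D3:**
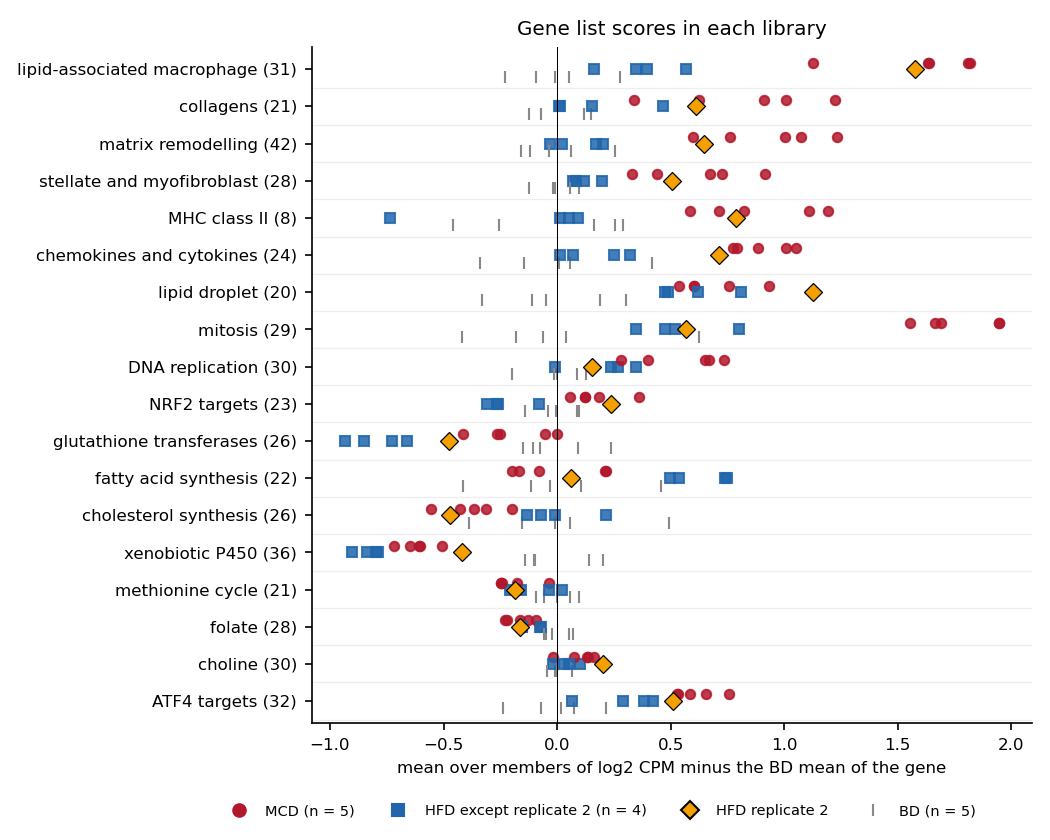
Score of 18 gene lists in each library (x axis, mean over tested members of log2 CPM minus the gene's BD mean; members in brackets). For mitosis the 5 MCD libraries lie apart from all HFD libraries, HFD replicate 2 included, whereas for lipid-associated macrophages HFD replicate 2 (1.57) lies with MCD (1.13 to 1.82) and away from the other HFD libraries (0.165 to 0.567).

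Of 22 genes of fatty acid synthesis 3 were called lower in MCD and none higher with all libraries (median -0.55), and without HFD replicate 2 10 were lower and 1 higher (median -0.65). The shares of all genes called lower in these fits were 0.927% and 3.31%. The list score, relative to the BD mean, was -0.201 to 0.217 in MCD, inside the BD range of -0.415 to 0.455. It was 0.499 to 0.746 in the other HFD libraries and 0.0608 in HFD replicate 2. Elovl2, which lengthens polyunsaturated fatty acids, was at 574, 659, 1019, 702 and 698 CPM in MCD and 1268, 822, 1390.1, 1301 and 1342 CPM in HFD, with MCD replicate 3 and HFD replicate 2 as the libraries nearest to the other group (-0.75 ± 0.15, edgeR adjusted p = 0.0135; -0.84 ± 0.13 and 0.000681 without HFD replicate 2). Elovl6, which lengthens palmitate, was at 213, 125, 169.6, 117 and 122 CPM in MCD and 259, 149, 299, 267 and 385 CPM in HFD and was called without HFD replicate 2 (-1.0 ± 0.23, edgeR adjusted p = 0.0133). Mlxipl, the carbohydrate-responsive factor ChREBP, had a log2 fold change of -0.66 ± 0.14 (edgeR adjusted p = 0.00636), Fasn, fatty acid synthase, of -1.27 ± 0.35 (edgeR adjusted p = 0.0373) and Acly, which makes cytosolic acetyl-CoA, of -1.17 ± 0.30 (edgeR adjusted p = 0.0258) in that fit. Srebf1 was not called there (-0.49 ± 0.31). Pparg, the fat-storage factor, was the member called higher, at 35, 21, 20.4, 27.3 and 18.1 CPM in MCD, 14.3, 9.72, 10.2 and 13.8 CPM in the other HFD libraries and 34.6 CPM in HFD replicate 2. The count of 10 was 5 on also leaving out MCD replicate 4, and 6 and 4 on also leaving out HFD replicates 1 and 4 in turn.

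Pnpla3, a triglyceride and retinyl ester lipase of the droplet surface, stood at 20.4, 9.97, 7.83, 3.28 and 1.02 CPM in MCD and 66.4, 5.66, 50.7, 50.8 and 59.6 CPM in HFD. The 4 other HFD libraries lay between 50.7 and 66.4 CPM, HFD replicate 2 within the MCD range, and BD libraries averaged 3.44 ± 3.2 CPM (SD, n = 5). It was called without HFD replicate 2 (-2.68 ± 0.63, edgeR adjusted p = 0.0212), with an adjusted p of 0.0547 on also leaving out HFD replicate 4. Of 20 droplet genes 4 were higher and 2 lower without HFD replicate 2, against 6.8% and 3.31% of all genes. Plin4, a droplet coat protein, was at 112, 48.4, 42.5, 104 and 67.9 CPM in MCD, 20.1, 17.3, 14.8 and 26.6 CPM in the other HFD libraries and 91.7 CPM in HFD replicate 2. Abhd5, the activator of the main triglyceride lipase, was lower with all libraries (-0.54 ± 0.15, edgeR adjusted p = 0.0472; -0.61 ± 0.14 and 0.0105 without HFD replicate 2). With all libraries that call was lost in 17 of 26 alternatives, among them leaving out any 1 of BD replicates 1, 2, 3 and 4. Of 38 fatty acid oxidation genes none was called with all libraries, and without HFD replicate 2 the fatty acid transporter Cd36 (1.46 ± 0.32, edgeR adjusted p = 0.0114) and Acot2 were higher. These 2 of 38 were no larger a share than the 6.8% of all genes called higher in that fit.

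Cholesterol synthesis and uptake gave 1 of 26 lower with all libraries and 6 without HFD replicate 2, none higher (median -0.38 there). For this and the next list, 0.927% and 3.31% of all genes were called lower in these fits, and 2.22% and 6.8% higher. Stard4, a sterol carrier, had a log2 fold change of -0.52 ± 0.13 (edgeR adjusted p = 0.0371; -0.59 ± 0.13 and 0.00846 without HFD replicate 2), and Sqle, squalene epoxidase, was at 100.4, 93.1, 115, 77.8 and 113 CPM in MCD, 199, 177, 154 and 153 CPM in the other HFD libraries and 86.5 CPM in HFD replicate 2. With all libraries the Stard4 call was lost in 13 of 26 alternatives. Among bile acid genes none of 22 was called with all libraries, and without HFD replicate 2 the basolateral and canalicular transporters Slc10a1 (-0.49 ± 0.11) and Abcb11 (-0.44 ± 0.12) were lower and the sinusoidal Slco1a4 and Abcc3 higher. Slco1a4 was at 41.8, 42.5, 37.8, 58.4 and 46.2 CPM in MCD, 15.9, 19.4, 16.4 and 22.5 CPM in the other HFD libraries and 56 CPM in HFD replicate 2. Its fold change was 1.32 ± 0.14 without that library (edgeR adjusted p = 6.84e-05) and 0.79 ± 0.29 with it (edgeR adjusted p = 0.144). The 5 bile acid genes called lower became 1, 1 and 2 on also leaving out MCD replicates 1, 4 and 5 in turn, and 1, 1 and 3 on also leaving out HFD replicates 3, 4 and 5 in turn.

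Glutathione transferases were called in 1 direction only: 5 of 26 tested were higher with all libraries (median 0.31) and 11 of 27 without HFD replicate 2 (median 0.29). The shares of all genes called higher were 2.22% and 6.8%. The list score, relative to the BD mean, was -0.415 to 0.002 in MCD and -0.936 to -0.662 in the other HFD libraries. It was -0.476 in HFD replicate 2 and -0.152 to 0.239 in BD, so every HFD library lay below BD. Gsta4, which conjugates 4-hydroxynonenal, a product of lipid peroxidation, was at 61.9, 64, 36.3, 50.5 and 43 CPM in MCD, 14.3, 27.2, 18, 16.9 and 20.9 CPM in HFD and 75.2 ± 7.33 CPM in BD (SD, n = 5). Every MCD library exceeded every HFD library, and HFD replicate 2 was the highest of the HFD libraries (1.4 ± 0.17, edgeR adjusted p = 0.00119; 1.57 ± 0.16 and 4.84e-05 without it). Gsta2 was at 10.1, 8.51, 7.21, 12.3 and 13.1 CPM in MCD and 2.7, 4.53, 1.42, 1.93 and 3.24 CPM in HFD (1.86 ± 0.26, edgeR adjusted p = 0.00278; 2.13 ± 0.27 and 0.000249 without HFD replicate 2), and Gstm3 rose by 1.52 ± 0.27 (edgeR adjusted p = 0.0119). Gsta1 was at 4.48, 3.63, 1.01, 3.16 and 3.96 CPM in MCD and 0.253, 1.6, 0, 0 and 0.27 CPM in HFD. Members of the Gsta and Gstm families are near-identical and reads without a unique position entered no gene, so their values are uncertain. With all libraries the count of 5 was 3 on leaving out MCD replicate 1, and 3, 3 and 3 on leaving out HFD replicates 1, 3 and 4 in turn, and without HFD replicate 2 the count of 11 was 7 on also leaving out MCD replicate 1, and 7 and 6 on also leaving out HFD replicates 3 and 4 in turn.

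Targets of NRF2, the sensor of electrophiles, gave 1 of 23 higher with all libraries and 9 without HFD replicate 2, none lower. In these fits 2.22% and 6.8% of all genes were called higher. Nqo1, a quinone reductase, was at 18.3, 11.4, 8.05, 13.1 and 10.8 CPM in MCD, 6.16, 4.5, 4.68 and 4.18 CPM in the other HFD libraries and 12.3 CPM in HFD replicate 2. It was called without that library (1.34 ± 0.21, edgeR adjusted p = 0.000727) and not with it (0.94 ± 0.26, edgeR adjusted p = 0.0575). Ugdh, which makes the cofactor of glucuronidation, was the member called with all libraries (0.65 ± 0.17, edgeR adjusted p = 0.0472; 0.89 ± 0.12 and 0.000345 without HFD replicate 2). With all libraries its call was lost in 17 of 26 alternatives, among them leaving out any 1 of BD replicates 1, 2, 3, 4 and 5. Srxn1 and Fth1, the ferritin heavy chain, rose by 0.93 ± 0.17 and 0.60 ± 0.12 without HFD replicate 2. In all 9 of these genes HFD replicate 2 lay nearer to the MCD mean than to that of the other HFD libraries. The same held for 78.9% of the 1232 genes called without it, so this is not particular to NRF2 targets.

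Xenobiotic P450 genes moved both ways, 1 higher and 4 lower of 36 with all libraries and 4 higher and 5 lower without HFD replicate 2. Over all genes the shares were 2.22% higher and 0.927% lower, and 6.8% and 3.31% without that library. Cyp3a11, a main drug-oxidising P450, was at 1665, 1452, 1385, 1652 and 1389 CPM in MCD and 741, 1361, 961, 650.4 and 781 CPM in HFD, with no overlap (0.75 ± 0.15, edgeR adjusted p = 0.0147; 0.96 ± 0.11 and 9.82e-05 without HFD replicate 2). Cyp2b9 was at 78.3, 7.79, 13, 108 and 17.3 CPM in MCD, where the libraries were far apart, at 0.422, 0.474, 0.0483 and 0.27 CPM in the other HFD libraries and at 48.6 CPM in HFD replicate 2. It was called without that library (edgeR adjusted p = 0.00335) and not with it (edgeR adjusted p = 0.348). Cyp2u1 and Cyp2c29 were lower in MCD (-1.0 ± 0.22 and -0.66 ± 0.13, edgeR adjusted p = 0.0219 and 0.0157). The Cyp2b and Cyp2c families share near-identical members and carry the same uncertainty. UGT and SULT genes gave none of 22 called with all libraries and 1 in each direction without HFD replicate 2, Sult1c2 higher and Papss2 lower. This was near the shares of all genes in that fit (6.8% higher and 3.31% lower).

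Among secreted liver proteins, of 26 acute phase genes 1 was higher and 4 lower with all libraries, and 5 and 5 without HFD replicate 2. Over all genes 2.22% were higher and 0.927% lower with all libraries, and 6.8% and 3.31% without that library. Itih4, an inter-alpha-trypsin inhibitor heavy chain, was at 1851, 2284, 2079.9, 2382 and 2178 CPM in MCD and 3027, 4417, 3619, 3065 and 3078 CPM in HFD, with no overlap (-0.68 ± 0.11, edgeR adjusted p = 0.00575; -0.55 ± 0.10 and 0.00209 without HFD replicate 2), and its neighbour Itih3 had a log2 fold change of -0.65 ± 0.10 (edgeR adjusted p = 0.00437; -0.67 ± 0.10 and 0.000675 without HFD replicate 2). The fibrinogen chains Fga and Fgb were lower with all libraries (-0.69 ± 0.17 and -0.65 ± 0.15) and Fgg without HFD replicate 2 (-0.73 ± 0.17). Lcn2, lipocalin 2, was at 34.6, 24.1, 24.4, 48.4 and 59.3 CPM in MCD and 13.2, 4.5, 4.44 and 4.99 CPM in the other HFD libraries. In HFD replicate 2 it reached 182 CPM, above every MCD library. Its fold change was -0.16 ± 0.90 with that library (edgeR adjusted p = 0.952) and 2.46 ± 0.40 without it (edgeR adjusted p = 0.00214). Hepatocyte identity genes gave 2 of 33 lower with all libraries and 4 without HFD replicate 2, including F7, coagulation factor VII (-0.44 ± 0.10, edgeR adjusted p = 0.0262; -0.46 ± 0.11 and 0.012 without HFD replicate 2). Serpina1e, of a family of near-identical copies, was at 518, 2324, 1969, 613 and 1386 CPM in MCD, 3516, 6521, 6358 and 4846 CPM in the other HFD libraries and 165 CPM in HFD replicate 2. Alb, albumin, was not called (0.15 ± 0.11).

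In the growth hormone list, Igf1 was lower in MCD (323, 522, 443, 454 and 426 CPM, against 497, 531, 643, 633 and 627 CPM in HFD; -0.44 ± 0.11, edgeR adjusted p = 0.0385). With all libraries the Igf1 call was lost in 13 of 26 alternatives. Among them was leaving out any 1 of MCD replicates 1, 4 and 5, HFD replicates 3, 4 and 5 or BD replicates 1 and 3. In the fit without HFD replicate 2 the edgeR adjusted p of Igf1 was 0.0183, and it was 0.0521 and 0.0681 on also leaving out HFD replicates 3 and 4 in turn. Igfbp3, the main carrier of IGF1 in blood, rose by 0.82 ± 0.13 (edgeR adjusted p = 0.00409; 0.89 ± 0.13 and 0.000593 without HFD replicate 2), at 45.1, 45.1, 36.6, 39.2 and 33.1 CPM in MCD and 20.5, 25.8, 21.8, 19.3 and 25.6 CPM in HFD without overlap. Among endoplasmic reticulum chaperones 1 of 27 was lower with all libraries, Derl3, part of the disposal path for misfolded proteins, and 5 without HFD replicate 2. The shares of all genes called lower were 0.927% and 3.31%. Derl3 was at 3.38, 2.18, 2.13, 2.82 and 2.03 CPM in MCD and 5.57, 5.48, 26.1, 21.3 and 5.26 CPM in HFD, with HFD replicates 3 and 4 far above the others (-2.27 ± 0.48, edgeR adjusted p = 0.0223; -2.45 ± 0.46 and 0.00467 without HFD replicate 2). None of 20 clock genes was called in either fit by edgeR, against 2 and 3 at an unadjusted p under 0.05 and 1 called by DESeq2 in each fit. In the other lists without a call by edgeR in the fit with all libraries, 3 fatty acid oxidation, 6 bile acid, 6 UGT and SULT, 8 interferon-response, 3 Kupffer, 2 cholangiocyte, 4 mesothelial, 2 dendritic and 0 B cell genes had an unadjusted p under 0.05. DESeq2 called 3 of the bile acid, 2 of the UGT and SULT, 1 of the interferon and 1 of the cholangiocyte genes.

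Among genes called in both fits, without overlap and at 5 CPM or more, the largest increases beside those above were Serpinb1a, a protease inhibitor at 7.24, 6.02, 5.14, 6.16 and 6.4 CPM in MCD and 1.52, 4.15, 1.66, 0.628 and 2.16 CPM in HFD (1.67 ± 0.37), Pcp4l1 (1.59 ± 0.22), Serpinb6b (1.5 ± 0.25), Clec2h (1.49 ± 0.36) and Cdca3 (1.48 ± 0.21). By the same criteria the largest decreases beside Derl3 were Cyp17a1, a steroid hydroxylase at 11.8, 6.23, 16.4, 13.3 and 11.3 CPM in MCD and 49.1, 26.1, 26.3, 40.5 and 54.8 CPM in HFD (-1.73 ± 0.32, edgeR adjusted p = 0.0135; -1.83 ± 0.32 and 0.00335 without HFD replicate 2), Acpp (-1.51 ± 0.21), Srgap3 (-1.47 ± 0.32), Slc41a2 (-1.13 ± 0.26), Fgl1, a liver-secreted fibrinogen-like protein (-1.06 ± 0.21), Mpv17l (-1.02 ± 0.18), Lrit2 (-0.91 ± 0.20), Pard3b (-0.88 ± 0.16) and Slc16a6 (-0.86 ± 0.16). For Fgl1 HFD replicate 2 held the highest value of all 10 libraries (677 CPM). Of the 77 genes named by rule and called with all libraries, 29 kept the call without each library in turn, BD libraries included. Of 141 called without HFD replicate 2, 105 kept it without each further MCD or HFD library in turn. BD libraries were not left out there, so the shares are not alike.

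HFD replicate 2 did not stand at one place between the diets for all gene groups. On a scale from 0 (mean of the other 4 HFD libraries) to 1 (mean of the 5 MCD libraries), over the 1232 genes called without it and measured in all libraries, its median position was 0.823, with 78.9% of genes above 0.5. The other 9 libraries set the ends of the scale and took part in choosing the genes, so their medians lie near 0 (-0.196 to 0.236 in HFD) and 1 (0.674 to 1.21 in MCD) by construction and show only their spread. The value of HFD replicate 2 lay within the MCD range alone in 778 of these genes, within the range of the other HFD libraries alone in 148, and beyond the MCD mean in 370. By list its median position was 1.01 for lipid-associated macrophage genes, 1.17 for NRF2 targets, 1.04 for cholesterol synthesis and 0.954 for fatty acid synthesis. It was 0.686 for collagens, 0.628 for stellate markers, 0.551 for glutathione transferases and 0.542 for matrix genes. For mitosis genes it was 0.0751, with 3 of 22 placed members above 0.5, against 28 of 28 for macrophage genes. These positions describe the library and were not tested.

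**Figure D4:**
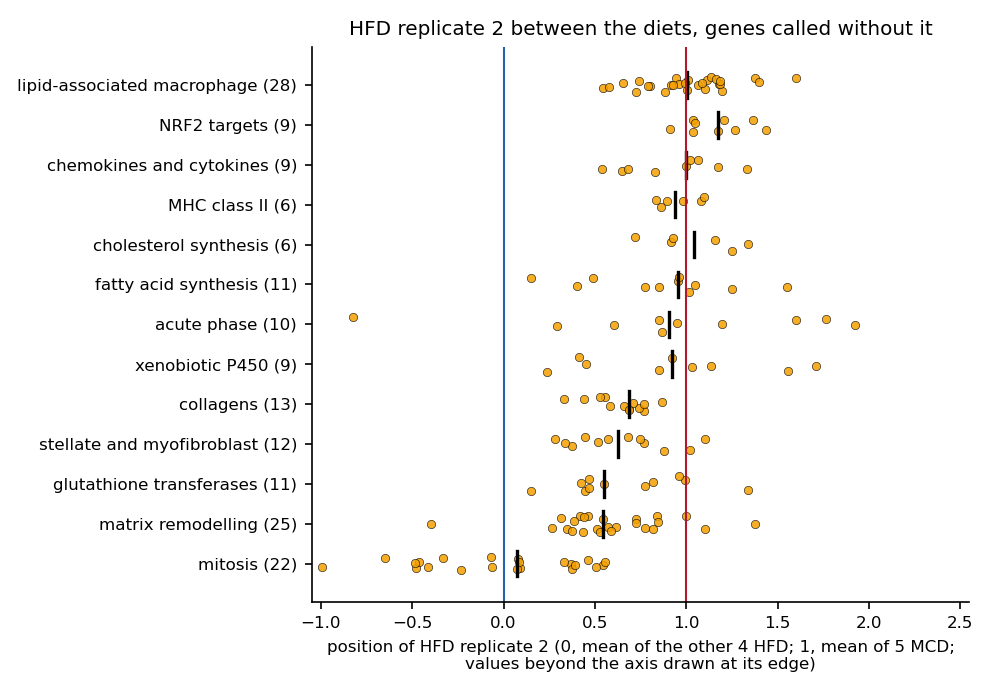
Position of HFD replicate 2 between the mean of the other 4 HFD libraries (0, blue line) and the mean of the 5 MCD libraries (1, red line) on log2 CPM, for each gene called without it (points), by list, with the median as a black bar; values beyond the axis are drawn at its edge. Macrophage genes centre on 1.01 and mitosis genes on 0.0751.

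Genes with the most extreme positions, among those with at least a 2-fold difference, were Serpina1e, Lcn2, Sulf2, Acot2 and Cidec beyond MCD and Top2a, Cdca3, Hamp2, Mki67 and Nr4a1 on the HFD side. Cidec, which fuses lipid droplets, was at 40.5, 13.4, 10.9, 35.4 and 28.5 CPM in MCD, 11.3, 4.5, 3.81 and 6.34 CPM in the other HFD libraries and 68.2 CPM in HFD replicate 2. Hamp2, a hepcidin gene, was at 35.3, 22.8, 12, 18.6 and 9.85 CPM in MCD and 7.76, 7.36, 6.87, 7.44 and 9.31 CPM in HFD, where all libraries lay close together (1.36 ± 0.31, edgeR adjusted p = 0.0278; 1.35 ± 0.34 and 0.0219 without HFD replicate 2). With all libraries its call was lost on leaving out any 1 of MCD replicates 1, 2 and 4 or HFD replicates 1, 3, 4 and 5. Without HFD replicate 2 it was lost on also leaving out HFD replicates 3 and 4 in turn (edgeR adjusted p = 0.0633 and 0.0852). Nr4a1, an immediate early gene, was at 2.4, 16.3, 26.1, 14.7 and 31.1 CPM in MCD and 3.21, 4.06, 4.27, 5.65 and 3.91 CPM in HFD. Immediate early genes, which handling of the animal or tissue can also induce, gave 4 of 18 higher with all libraries and 5 without HFD replicate 2, against 2.22% and 6.8% of all genes. They summed to 289.9 to 708 CPM in MCD, 279 to 337 CPM in the other HFD libraries and 394 CPM in HFD replicate 2. Atf3 and Klf6 are on that list and were called higher in both fits. Whether handling had a part in these calls was not tested.

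Markers of the other cells that liver tissue holds were summed in the same way. For the counts below, 2.22% of all genes were called higher with all libraries and 6.8% without HFD replicate 2. Cholangiocyte markers summed to 114 to 294 CPM in MCD, 84.5 to 114 CPM in the other HFD libraries and 231 CPM in HFD replicate 2. They gave none of 10 called with all libraries and 3 without HFD replicate 2, Cd24a, Krt23 and Spp1, the last of which also stands in the macrophage and matrix lists. Mesothelial and portal fibroblast markers gave none of 8 called with all libraries and 4 of 9 without HFD replicate 2, including Krt8 and Krt18, which hepatocytes also express. Endothelial markers gave 2 and 4 of 16 higher, among them the adhesion molecules Icam1 (0.79 ± 0.21, edgeR adjusted p = 0.045; 1.04 ± 0.19 and 0.00223 without HFD replicate 2) and, without HFD replicate 2, Vcam1. With all libraries the Icam1 call was lost in 16 of 26 alternatives, among them leaving out any 1 of BD replicates 1, 2, 3 and 4. Dendritic cell markers summed to 23.4 to 27.9 CPM in MCD, 15.4 to 18.6 CPM in the other HFD libraries and 27.2 CPM in HFD replicate 2. Of 4 tested T and NK cell markers Ccl5 was higher and Cd4 lower in both fits. Over all genes 0.927% were called lower with all libraries and 3.31% without HFD replicate 2. With all libraries the Ccl5 call was lost in 13 of 24 alternatives and the Cd4 call in 10 of 25. Without HFD replicate 2 they were lost in 2 of 17 and 4 of 18. Neutrophil markers summed to 4.80 to 6.56 CPM in MCD and to 3.81 to 5.25 CPM in HFD without replicate 2, 1 of them being tested, and none of 3 B cell markers was called. Of 8 pancreas markers 7 were at 0 in all 10 libraries, as were Hba-a1 and Hba-a2 of the erythroid list and Lep of the adipocyte list. The erythroid list as a whole summed to 151 to 235 CPM in MCD and 155 to 195 CPM in the other HFD libraries. In HFD replicate 2 it was 137 CPM. The zeros of Hba-a1 and Hba-a2 therefore do not show that erythroid RNA was absent, and reads without a unique position entered no gene. The part of these cells in the results above was not tested.

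The ratio of alignments without a unique place to gene counts averaged 1.37 ± 0.183 in MCD and 1.89 ± 0.510 in HFD (SD, n = 5 each; p = 0.0794 by an exact permutation test, two-sided, and 0.222 after Benjamini-Hochberg adjustment over 4 library measures). Leaving out HFD replicate 2 gave an HFD mean of 2.07 ± 0.345 (SD, n = 4), for which no test is given, since this ratio is among the measures by which that library stood apart. With that ratio as a covariate, 523 genes were called higher and 337 lower without HFD replicate 2, 540 of them among the 1248 called without the covariate. In that fit 23 mitosis, 20 macrophage, 19 matrix, 7 collagen and 7 chemokine genes were called higher. Counts higher fell from 12 to 5 for stellate markers, from 11 to 6 for glutathione transferases, from 9 to 4 for NRF2 targets, from 9 to 4 for p53 targets and death genes and from 5 to 1 for ATF4 targets. Counts lower rose from 10 to 14 for fatty acid synthesis, from 6 to 14 for cholesterol and from 3 to 7 for folate. They fell from 5 to 0 for bile acid genes and from 5 to 0 for endoplasmic reticulum chaperones. With all libraries and the covariate 87 genes were higher and 26 lower. These included 17 mitosis, 5 matrix, 3 stellate, 3 glutathione transferase, 1 macrophage and 0 collagen genes higher and 1 fatty acid synthesis gene lower. The ratio and the diet cannot be told apart in the libraries other than HFD replicate 2, since no other HFD library overlapped MCD.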

How the data were processed

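PolyA RNA-seq libraries of 15 liver samples were deposited by the authors as raw read counts per gene symbol, 23420 genes in each of 15 files. The tools listed per the submitters' processing notes are TopHat2 2.0.13, HTSeq, Trimmomatic and DESeq2, with the build GRCm38/mm10. Their order, the annotation and the strand setting were not given in the sources used here, so overlapping and antisense genes are uncertain although the library kit, per the labels' protocols, marks strand. The 5 closing rows of each file (reads without a feature, ambiguous or not uniquely aligned) stayed out of the counts. Reads without a feature were 12.7% to 17.0% of uniquely aligned reads in the MCD and HFD libraries.

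Groups follow the diet labels, and replicates were numbered in accession order. The main test was edgeR 4.0.16 (R 4.3.3, limma 3.58.1), a quasi-likelihood fit over the 15 libraries with TMM factors, the MCD against HFD contrast, and Benjamini-Hochberg adjustment over 12193 genes with at least 10 counts in enough libraries and 15 in total. It was repeated without HFD replicate 2 (12340 genes). Log2 CPM used a prior count of 2, and a printed ± after a fold change is its SE. The fit was tested on simulated data that held no outlying library, so that test does not bear on HFD replicate 2. Alternatives were other scaling factors, DESeq2 1.42.0, limma-voom, other filters, the 10 libraries alone, a covariate, thinning, other thresholds and each library left out. BD libraries were left out in turn only in the fit with all libraries. No 2 libraries of a diet agreed within counting error, the smallest chi-square over its degrees of freedom being 7.33.

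The comparison and the 46 gene lists (1085 entries, 1077 found, 8 of them by an older symbol) were chosen with earlier results of these data known, so no list is independent evidence of its direction. Genes named are the 10 largest increases and decreases called in both fits without overlap and at 5 CPM or more, the 4 called members of smallest p in each nutrient, lipid, xenobiotic and injury list (2 in other lists, 1 where none was called), 24 key nutrient steps (1 of them not reported here), and the 5 genes at each end of the position of HFD replicate 2. Further genes named as examples of a list were chosen after their values were seen.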

Additional observations from a re-analysis of the deposited data

Results flagged for a closer look

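In 182 groups of 5 values (library measures, list scores and some named genes, each within 1 diet) the highest or lowest library was compared with the others by Dixon's ratio at the 95% level. The genes screened were those with the 10 largest increases and decreases and the key nutrient steps, and the other named genes were not screened. It stood apart in 10 groups, where chance gives about 1 in 20 groups, or 9.1 of 182, and 5 of the 10 were HFD replicate 2.

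The score of a list is the mean over its members of log2 CPM minus the BD mean. The score of lipid-associated macrophage genes reached 1.57 in HFD replicate 2, where its diet otherwise ranged from 0.165 to 0.567. In MCD replicate 3 that score was 1.13, against 1.63 to 1.82 in the other MCD libraries. For xenobiotic P450 genes HFD replicate 2 scored -0.420 and the others of its diet -0.905 to -0.790. For growth hormone targets it scored -0.719 and they 0.0169 to 0.275.

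Among single genes, Cbs was at 377 CPM in HFD replicate 2, against 510.3 to 551 CPM in the other HFD libraries, and Mthfd1 was at 211 CPM there, against 262 to 269.9 CPM. MCD replicate 2 was above the other MCD libraries for Bhmt (432 CPM, against 311 to 338 CPM), Cdo1 (1917 CPM, against 1292 to 1451 CPM) and Clec2h (27.8 CPM, against 9.91 to 13.3 CPM). Fgf21 was at 28.4 CPM in HFD replicate 3, against 12.4 to 15.2 CPM in the other HFD libraries.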

How the results depend on the processing

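No paired analysis was possible because the labels give no replicate numbers, and numbers given in accession order pair nothing. With all libraries 271 genes were higher and 113 lower. These counts became 411 and 67 without scaling factors, 433 and 268 with DESeq2, 164 and 56 with at least 5 CPM in 5 libraries, 171 and 53 with the MCD and HFD libraries alone, 87 and 26 with non-unique alignments as a covariate, 112 and 57 after thinning every library to the smallest total, 33 and 10 at an adjusted p under 0.01, and about 1.3e+02 and 30 at 2-fold or more. Leaving out 1 library gave 56 (HFD replicate 4) to 839 higher (HFD replicate 2) and 18 to 409 lower, and leaving out HFD replicate 2 and MCD replicate 3 together gave 883 and 482.

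Without HFD replicate 2 the counts were 839 and 409. The count higher became 547 with at least 5 CPM in 5 libraries, 523 with the covariate, 453 thinned, 317 at an adjusted p under 0.01 and 359 at 2-fold or more. The count lower became 228 without scaling factors, 257 with that filter, 239 thinned, 92 at an adjusted p under 0.01 and 78 at 2-fold or more. Leaving out a further MCD or HFD library gave 362 (HFD replicate 4) to 883 higher and 132 to 556 lower. Stricter filters, thresholds and thinning test fewer genes or counts by construction, and for the other settings the cause was not tested.

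The difference in non-unique alignments per gene count, -0.516, was -0.701 without HFD replicate 2, a library set apart partly by this ratio. The log2 fold change of Lcn2, -0.16 with all libraries, ran from -0.46 (without HFD replicate 4) to 2.46 (without HFD replicate 2) and was 2.58 without HFD replicate 2 and MCD replicate 3. Over the alternatives of all named genes, 3623 values kept their side of the threshold, 463 lost the threshold and 196 gained it. In 2 more, both for Lcn2, the sign changed and the gene was called in the main fit or the alternative. Changes of sign in genes called in neither were not counted.

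Depth limits the low genes: 3 counts correspond to 0.118 to 0.711 CPM in the MCD and HFD libraries, so mitosis genes at a few CPM rest on few counts. The 4 HFD libraries left without replicate 2 set the spread of that group.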
